A study of Mus musculus with 2 samples.

Results

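Regulators of epidermal fate, 9 of 43346 annotated genes, were followed in the limbs of mouse embryos at embryonic day 14.5. They were taken by name (Trp63, Sfn, Grhl1, Grhl2, Grhl3, Ovol1, Klf4, Klf5 and Tfap2a), and all 9 were found in the gene and transcript tables. Limbs of strain B6NCrl were profiled by total RNA sequencing in 2 libraries of 1 group, labelled biological replicates 1 and 2. Each sample is described as the 4 limbs of 1 pup, taken on different days, with the sex given as pooled. Each library used 10 ng of RNA above 200 nt with synthetic spike-in RNAs. No treatment or mutant allele is labelled, so there is no contrast between conditions. The donor, pup and pregnancy identifiers of the samples are also identical, so p-values measure only the difference between these 2 libraries, which may be technical.

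The limb at this age is covered by a surface ectoderm that is becoming stratified. p63, encoded by Trp63, is the transcription factor on which the formation and upkeep of stratified epithelia depend. It is made from an upstream promoter as TA forms, which carry an amino-terminal transactivation domain, or from an internal promoter as deltaN forms, the main forms of basal keratinocytes. Sfn encodes stratifin, an epithelial member of the 14-3-3 adaptor proteins that limits keratinocyte proliferation. The Grainyhead-like factors Grhl1, Grhl2 and Grhl3 act in epithelial adhesion and barrier formation, Klf4 in barrier acquisition, and Klf5 in proliferating epithelial cells. The zinc finger repressor Ovol1 helps keratinocytes leave the cell cycle, and Tfap2a encodes AP-2 alpha, an early ectodermal factor.

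The TA and deltaN forms of Trp63 differ in how their coding sequence begins, and both beginnings are shown. The promoter shares below rest on where each annotated transcript starts. In GENCODE M21 (GRCm38, the assembly also called mm10) Trp63 spans chr16:25683763-25892102 on the plus strand. Its transcripts start either at the upstream end or at the internal start 25801916, with a gap of 118151 nt between the sets. The deltaN coding part of the first exon, 42 nt at chr16:25802060-25802101, and the first 60 coding bases of the TA forms, whose start codon is at 25684290, are given 5′ to 3′ with the start codon in capitals.
Trp63 deltaN coding start: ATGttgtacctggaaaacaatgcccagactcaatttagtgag
Trp63 TA coding start: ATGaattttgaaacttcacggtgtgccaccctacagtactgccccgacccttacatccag

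The 2 most abundant Trp63 transcripts, Trp63-201 and Trp63-205, have the same start and stop codons and differ in a coding stretch of 12 nt, or 4 codons, that only Trp63-201 has of the pair. The stretch begins at coding position 836 of Trp63-201, counted from the A of the start codon, and is in capitals below with 24 nt on either side.
Trp63-201 with the stretch: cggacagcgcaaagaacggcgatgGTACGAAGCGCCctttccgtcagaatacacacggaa
Trp63-205 without the stretch: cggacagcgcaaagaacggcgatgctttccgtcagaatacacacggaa

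RefSeq start sites (GRCm38.p6) were matched for 5 of the 9 genes, in 7 entries. Trp63, Grhl2, Ovol1 and Klf5 were not among them. Grhl1 is shown at both of its starts because its transcripts from these starts differed in share between the libraries. Sfn is shown as the most abundant of the genes and Grhl3 as the only entry with 2 KLF-type matches. Each sequence is the 250 bases before a start site, on the strand of the gene, and capitals mark the searched motifs described below. The upstream Grhl1 region is chr12:24572037-24572286, which overlaps the first bases of Grhl1-202 in GENCODE. The internal Grhl1 region, chr12:24580469-24580718, lies within the gene and overlaps no exon. The Sfn region, chr4:133602169-133602418, and the Grhl3 region, chr4:135573633-135573882, lie on the minus strand and overlap no annotated gene.
Grhl1 upstream start: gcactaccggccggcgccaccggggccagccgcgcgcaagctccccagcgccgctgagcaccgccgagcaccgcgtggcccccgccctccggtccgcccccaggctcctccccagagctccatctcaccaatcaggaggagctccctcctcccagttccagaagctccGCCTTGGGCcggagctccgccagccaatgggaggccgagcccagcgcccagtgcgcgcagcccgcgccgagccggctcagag
Grhl1 internal start: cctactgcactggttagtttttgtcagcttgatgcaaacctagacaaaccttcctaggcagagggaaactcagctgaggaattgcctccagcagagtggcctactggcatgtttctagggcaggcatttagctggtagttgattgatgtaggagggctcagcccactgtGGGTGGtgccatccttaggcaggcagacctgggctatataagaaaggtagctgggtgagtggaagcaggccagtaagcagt
Sfn: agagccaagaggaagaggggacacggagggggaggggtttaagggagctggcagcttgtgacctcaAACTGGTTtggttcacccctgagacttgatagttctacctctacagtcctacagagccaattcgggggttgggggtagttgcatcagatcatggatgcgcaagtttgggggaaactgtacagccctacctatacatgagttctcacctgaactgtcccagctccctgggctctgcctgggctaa
Grhl3: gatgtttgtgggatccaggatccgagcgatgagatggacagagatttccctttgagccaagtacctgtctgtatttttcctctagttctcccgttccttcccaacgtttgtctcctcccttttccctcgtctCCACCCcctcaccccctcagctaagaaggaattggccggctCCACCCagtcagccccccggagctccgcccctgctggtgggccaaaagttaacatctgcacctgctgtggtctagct

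In bulk tissue, fewer cells of a type and less RNA per cell cannot be told apart, and that holds for every level and difference given here. The libraries held 34193161 and 32879425 expected counts, of which 5.29% and 5.20% were spike-ins. The limb label was checked against Tbx5, Tbx4, Pitx1, Msx1, Hoxd13 and Hoxa13, and all 6 were at 1 TPM (a length-scaled transcript abundance with a fixed total per library) or more in both libraries. They summed to 223 TPM (replicate 1) and 300 TPM (replicate 2). Of 7 markers of internal epithelia (lung, gut, kidney, thyroid and liver) none reached 1 TPM, and they summed to 0.64 TPM and 0.91 TPM, with Cdx2 listed at 0. Keratins of stratified epithelium were present, with Krt14 at 380 ± 8.61 TPM and Krt5 at 161 ± 5.97 TPM (SD, n = 2).

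All 9 regulators were at 1 TPM or more in both libraries, whereas 34.0% of all annotated genes (14739) were. Their mean levels spanned from 6.94 TPM for Grhl2 to 207 TPM for Sfn. The median of the 13191 protein-coding genes detected in both libraries was 18.6 TPM, so that Sfn, Trp63, Klf5, Grhl3 and Klf4 lay above it and Grhl1, Ovol1, Tfap2a and Grhl2 below. TPM is scaled by transcript length, so levels can be set beside each other across genes as far as the transcript lengths behind them hold, which is open to doubt for Klf5 as described with its values.

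**Figure D1:**
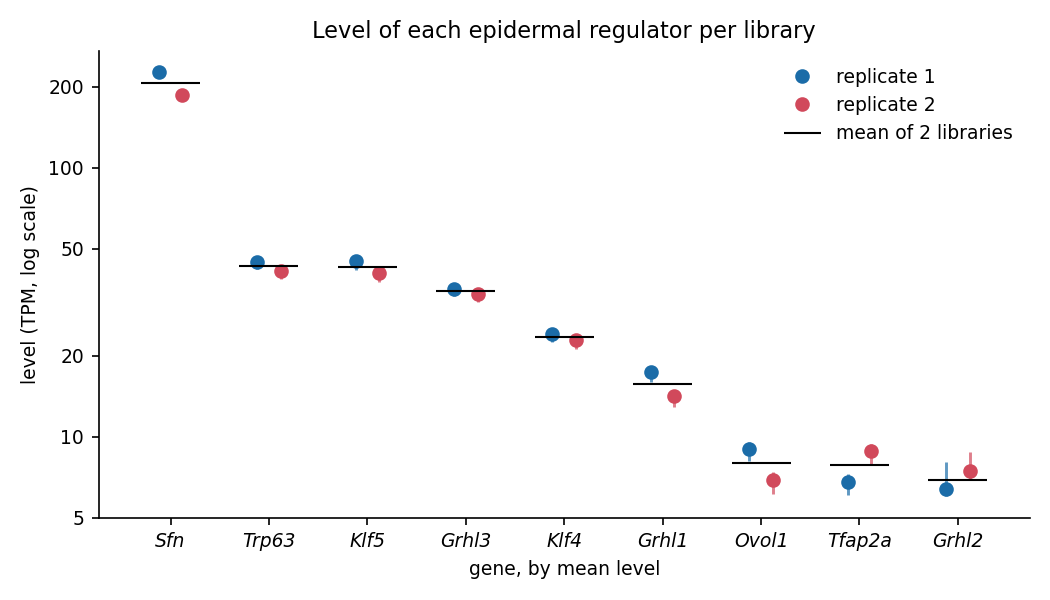
Level in TPM (log axis) of each regulator in replicate 1 (blue) and replicate 2 (red), with the mean as a black bar and the credibility interval deposited with each value as a vertical line. Sfn stands 4.80-fold above Trp63, and the values of Ovol1, Tfap2a and Grhl2 overlap.

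Trp63 stood at 44.8 TPM (replicate 1) and 41.4 TPM (replicate 2), a mean of 43.1 ± 2.37 TPM (SD, n = 2), from 3956 and 3363 expected counts. It lay above 73.8% of the detected protein-coding genes. Its relative Trp53, the tumour suppressor p53 found in most cell types, was at 106 and 119 TPM. Trp73, the third gene of the family, was at 1.98 and 2.09 TPM. Trp63 was thus the middle gene of the p53 family, with 27.3 ± 2.67% of the family's summed TPM (SD, n = 2). Its log2 ratio was -1.38 ± 0.20 to Trp53 and 4.34 ± 0.13 to Trp73 (SD, n = 2), the latter equal to a 20.2-fold ratio on the log2(TPM + 0.1) scale.

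Nearly all of the Trp63 signal was assigned to the deltaN start. The 4 deltaN transcripts held 41.5 and 38.5 TPM (replicates 1 and 2), which was 92.7% and 93.0% of the gene. The 4 TA transcripts held 3.27 and 2.92 TPM, or 7.30% and 7.05%. The deltaN share was 92.8 ± 0.18% (SD, n = 2), so the libraries differed in it by less than 1 percentage point. By expected counts, which give more weight to long transcripts, the deltaN share was 96.7%.

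The TA share came almost wholly from 1 short model. Trp63-206 ends after 231 codons in a last exon of 931 nt at chr16:25820388-25821318, part of which is shared with other Trp63 transcripts. It was at 3.20 and 2.79 TPM from 124 and 101 expected counts. Of its 1782 nt, 678 nt are in no other Trp63 transcript, 676 nt of them in that last exon. The other 3 TA transcripts, Trp63-202, Trp63-207 and Trp63-208, together held 0.07 and 0.13 TPM, from 8.17 and 10.2 expected counts, and Trp63-208, the longest TA form, was listed at 0 in both. The full-length TA forms thus rested on a handful of expected counts in each library, and the tables do not show which reads were placed on the part of Trp63-206 shared with the longer TA forms. The last exon of Trp63-206 lies downstream of the internal start 25801916, within the span of the deltaN transcripts. Reads on its own 676 nt therefore do not show which promoter was used. Whether unspliced deltaN RNA in these total RNA libraries added to them was not tested.

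Among the deltaN transcripts, those with the long carboxyl end led. Trp63-201 stood at 16.02 and 18.3 TPM (replicates 1 and 2), or 35.8% and 44.1% of the gene. Trp63-205, which lacks the 12-nt stretch, was at 16.9 and 11.2 TPM, or 37.8% and 27.1%. The order of the pair differed between the libraries, and for each transcript the deposited intervals of the libraries overlapped (Trp63-205: 13.1 to 21.1 TPM and 7.92 to 13.6 TPM). Their sum was steadier, at 32.9 and 29.5 TPM, or 72.3 ± 1.70% of the gene (SD, n = 2). Their products have 586 and 582 codons, the length of the form commonly called deltaN p63 alpha.

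The shorter deltaN ends were less abundant and kept their order. Trp63-204, with 393 codons and the end commonly called gamma, was at 7.55 and 7.67 TPM, or 17.7 ± 1.17% of the gene (SD, n = 2). Trp63-203, which stops after 284 codons in a last exon with 1643 nt of its own, was at 1.04 and 1.38 TPM. The ranges of Trp63-204 and Trp63-203 over the libraries did not overlap, nor did that of Trp63-204 with those of the long forms. The deposited intervals of Trp63-204 (6.05 to 8.79 TPM) and Trp63-205 (7.92 to 13.6 TPM) did overlap in replicate 2.

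**Figure D2:**
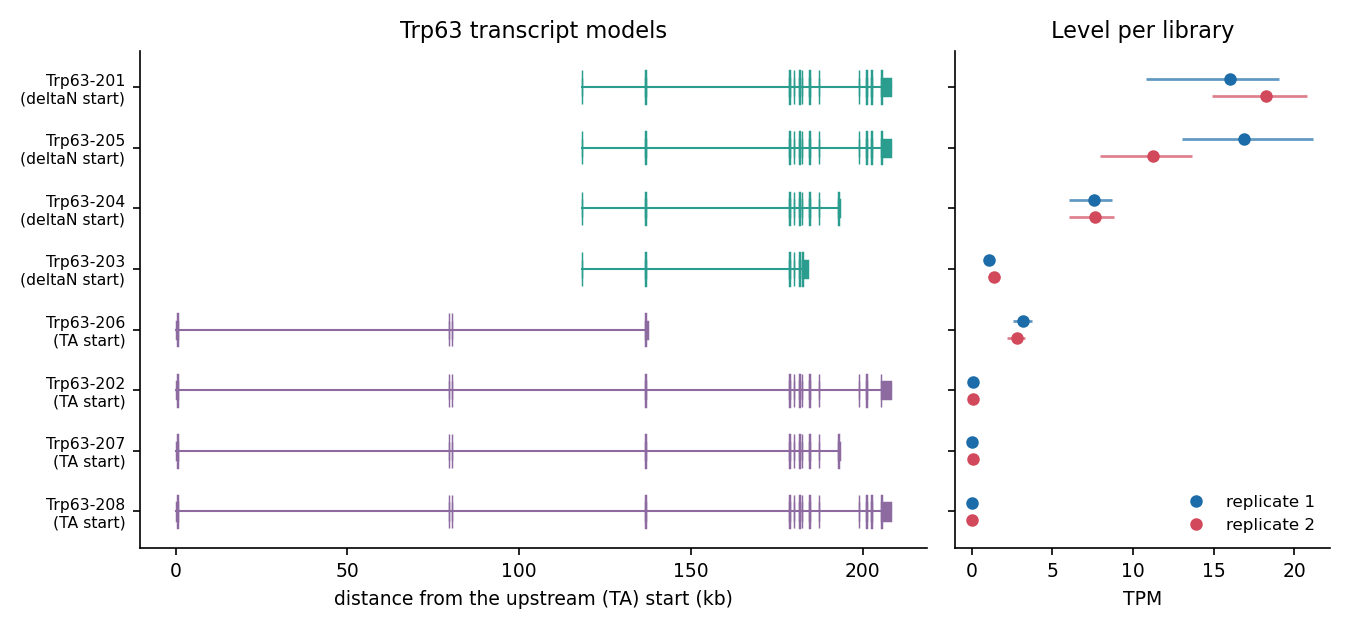
Left, the 8 Trp63 transcript models drawn to scale by distance in kb from the upstream start, with coding exons as tall boxes, other exon parts as low boxes, deltaN models in green and TA models in purple. Right, the TPM of each in replicate 1 (blue) and replicate 2 (red) with deposited intervals as lines; the other TA models are at or below 0.07 TPM in each library.

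Sfn was the most abundant of the 9, at 227 TPM (replicate 1) and 187 TPM (replicate 2), a mean of 207 ± 28.6 TPM (SD, n = 2). It lay above 95.4% of the detected protein-coding genes, and its level was 4.80-fold that of Trp63. The single-exon gene (chr4:133600556-133602168, minus strand) has 1 transcript in the tables. Among the 7 genes of the 14-3-3 proteins it was the sixth, with 8.29 ± 1.23% of their summed TPM (SD, n = 2). Ywhae, Ywhaz and Ywhaq, which are expressed in many cell types, led at 609 ± 22.4, 591 ± 3.92 and 578 ± 21.4 TPM (SD, n = 2). The log2 ratio of Sfn to Ywhaz was -1.52 ± 0.19 (SD, n = 2). Ywhah was at 255 TPM, Ywhab at 215 TPM and Ywhag at 45.3 TPM (means of 2 libraries), and the Sfn values lay on either side of those of Ywhab (213 and 217 TPM).

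The 3 Grainyhead-like genes were expressed at unequal levels, in the order Grhl3, Grhl1, Grhl2 in both libraries. Grhl3 (chr4:135541888-135573630, minus strand) was at 35.6 and 34.1 TPM (34.8 ± 1.04 TPM, SD, n = 2) and held 60.6 ± 0.93% of the family's TPM. Grhl1 (chr12:24572283-24617391, plus strand) was at 17.4 and 14.1 TPM (15.8 ± 2.32 TPM). Grhl2 (chr15:37233036-37363569, plus strand) was at 6.40 and 7.47 TPM (6.94 ± 0.76 TPM). The library ranges of the 3 genes did not overlap: the log2 ratio of Grhl2 to Grhl3 was -2.32 ± 0.20, of Grhl1 to Grhl3 -1.15 ± 0.17 and of Grhl2 to Grhl1 -1.17 ± 0.37 (SD, n = 2). Grhl2 overlaps an antisense gene, Gm16136 (chr15:37231793-37233309), by 274 nt at its 5′ end, and Gm16136 stood at 59.5 and 51.1 TPM, above Grhl2 itself. No source used here gives the strand of counting, so reads in the overlap cannot be assigned to one of the pair with certainty and both levels are uncertain there.

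Grhl1 and Grhl2 each divided their signal over several transcripts, in proportions that differed between the libraries. Grhl1-202, the 618-codon form from the upstream start, was at 14.1 TPM (81.1% of the gene) in replicate 1 and 9.59 TPM (67.8%) in replicate 2. Grhl1-201, the 536-codon form from the internal start, was at 3.29 TPM (18.9%) and 4.54 TPM (32.2%). The deposited intervals of the libraries did not overlap for Grhl1-202 (11.9 to 15.8 TPM and 7.56 to 11.4 TPM) but did for Grhl1-201 (1.04 to 5.05 TPM and 2.16 to 6.34 TPM). Only 35 nt of Grhl1-201 are in no other transcript of the gene, against 434 nt of Grhl1-202. The coding model Grhl2-201 was at 4.37 and 5.90 TPM (68.3% and 79.0%), and the noncoding model Grhl2-205 at 1.11 and 1.34 TPM. Grhl2-203 was at 0.92 and 0.23 TPM. Grhl3 had 1 transcript.

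Both Krüppel-like members ranked high in their family. Klf5 (chr14:99298691-99315036, plus strand) was at 44.9 and 40.7 TPM (42.8 ± 3.0 TPM, SD, n = 2) and was the first of 17 Klf genes, with 16.1 ± 1.05% of their TPM. Klf4 (chr4:55527143-55532466, minus strand) was at 24.1 and 23.0 TPM (23.5 ± 0.78 TPM) and was the fifth. Klf5 exceeded Klf4 in both libraries, at a log2 ratio of 0.86 ± 0.05 (SD, n = 2). Klf3, Klf6 and Klf10 stood between them at 34.3 ± 0.16, 33.4 ± 1.86 and 30.9 ± 0.96 TPM, and Klf13 followed at 21.1 ± 0.56 TPM. Klf2, Klf7, Klf12 and Klf11 had means of 16.02, 13.5, 12.7 and 11.7 TPM, Klf14 and Klf16 of 9.14 and 8.61 TPM, and Klf15 of 3.65 TPM. Klf9, the erythroid factor Klf1, and Klf8 were near 1 TPM (1.44, 1.31 and 1.19 TPM), and Klf17 was listed at 0 in replicate 1 and at 0.05 TPM in replicate 2. The Klf5 model behind the deposited values is 1721 nt long, whereas the same transcript is 3352 nt in GENCODE M21, and the Klf5 level depends on that length. Its place above Klf4, at the head of the Klf family and above the median of detected genes rests on the shorter model, and its level with the longer one was not computed. Klf4-201 held 100% and 96.2% of Klf4.

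Ovol1 (chr19:5549136-5560646, minus strand) was at 9.04 and 6.92 TPM (7.98 ± 1.5 TPM, SD, n = 2). It held 83.6 ± 1.44% of the TPM of its family, with Ovol2, a repressor of mesenchymal genes in epithelia, at 1.36 and 1.04 TPM and Ovol3 at 0.55 and 0.22 TPM. The log2 ratio of Ovol1 to Ovol2 was 2.65 and 2.62 in replicates 1 and 2. Ovol2 rested on 45 and 32 expected counts, and the closeness of the 2 ratios was not tested. Their mean was 2.40 by posterior mean TPM, and 2.72 and 2.02 with pseudocounts of 0.01 and 1 TPM. Tfap2a (chr13:40715302-40738376, minus strand) was at 6.80 and 8.87 TPM (7.84 ± 1.46 TPM), of which 92.0% and 89.6% was in Tfap2a-201. It was not the leading AP-2 gene: Tfap2b was at 32.3 and 40.0 TPM, a log2 ratio of Tfap2a to Tfap2b of -2.20 ± 0.05 (SD, n = 2). Tfap2c, at 7.66 and 7.58 TPM, lay above Tfap2a in replicate 1 and below it in replicate 2. Tfap2e was at 0.26 and 0.35 TPM and Tfap2d was listed at 0. Tfap2a overlaps the antisense gene Gm26688 (chr13:40727808-40735162), which stood at 1.91 and 3.28 TPM, so that part of its signal is uncertain for the same reason as for Grhl2. Tfap2a also overlaps Gm47061 and Gm47067 on the opposite strand, which have no level here. The Ovol1 span overlaps opposite-strand genes without a level here as well, Gm31166 by 1233 nt and AC126029.1 by 387 nt. The Ovol1 level is uncertain in these parts too.

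**Figure D3:**
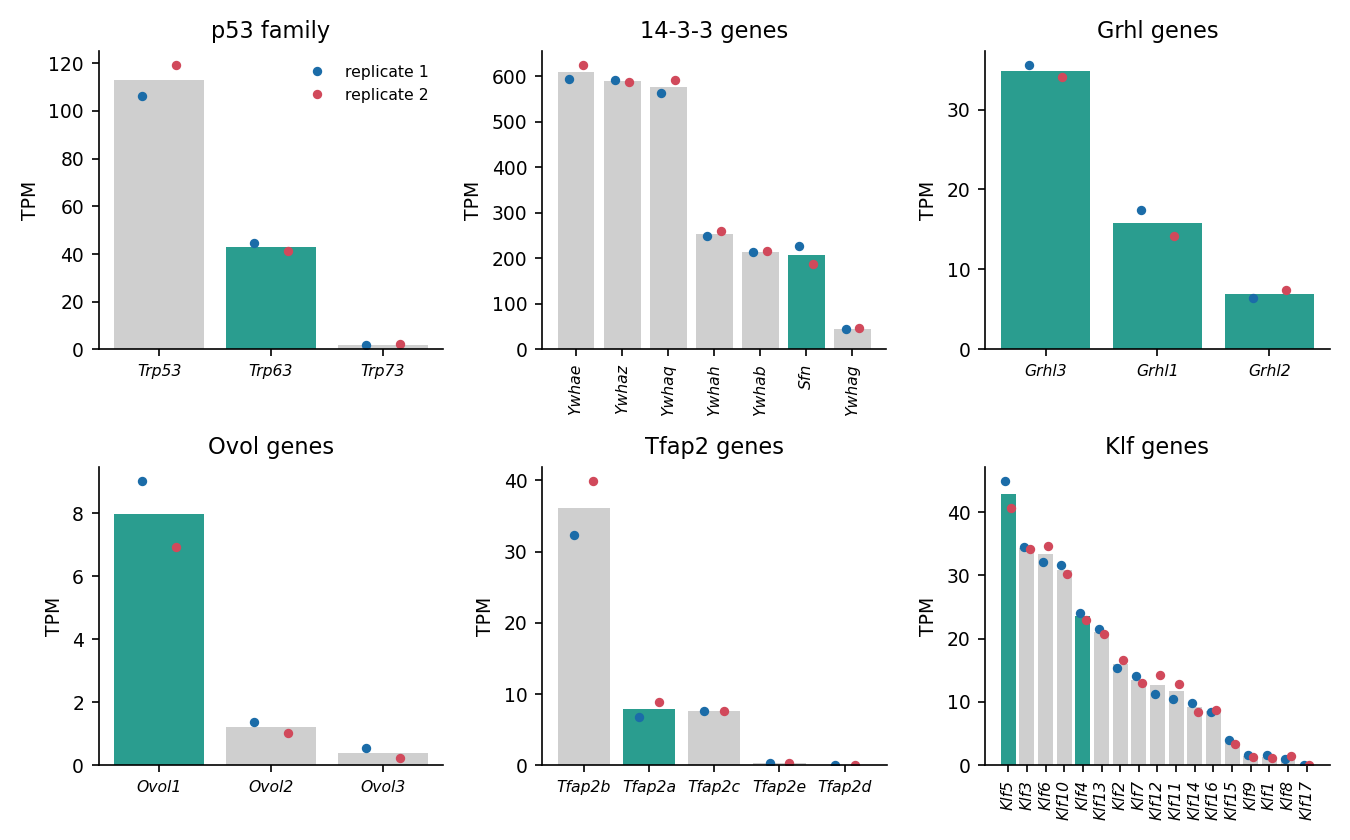
Mean TPM (bars, from 0) of every gene in the 6 families, with replicate 1 in blue and replicate 2 in red; the regulators are in green and their relatives in grey. Grhl3, Ovol1 and Klf5 lead their families, whereas Trp63 and Tfap2a are second and Sfn is sixth of 7.

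In order of mean level the genes were Sfn, Trp63, Klf5, Grhl3, Klf4, Grhl1, Ovol1, Tfap2a and Grhl2. The library ranges of Trp63 and Klf5 overlapped, as did those of Ovol1 and Tfap2a and of Tfap2a and Grhl2, so these neighbours did not differ beyond their spread. The remaining 5 steps of the order had ranges that did not overlap, from 1.23-fold between Klf5 and Grhl3 to 4.80-fold between Sfn and Trp63.

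Of the 9 genes, 7 were lower in replicate 2 and 2, Tfap2a and Grhl2, were higher, by a two-sided exact binomial test on counts scaled by the trimmed mean of M values (TMM), with Benjamini-Hochberg adjustment over 19153 genes at 0.05. That is 7 members lower where 14.6% of all tested genes were called lower, and 2 higher where 12.4% were called higher. This test weighs counting error only and has 1 library on each side, so it compares the libraries and has no replicate check. By the exact test of edgeR, 0 of the 9 were called, where 0.668% of 16920 genes were. That test used a common dispersion estimated from the same libraries, which treats their typical difference as error. Before adjustment, 1 of the 9, Ovol1, had a p under 0.05 by edgeR's exact test, where 1120 of 16920 genes did. By the binomial test 9 of the 9 had an unadjusted p under 0.05, where 7021 of 19153 genes did.

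Sfn had the smallest adjusted p of the 9 by the exact binomial test, with 7912 counts in replicate 1 and 6071 in replicate 2. Its log2 ratio of replicate 2 over replicate 1 was -0.36 on TMM-normalized counts (95% interval -0.41 to -0.31, counting error only; adjusted p = 8.2e-47 by the exact binomial test; adjusted p = 0.91 by edgeR). It was also the only one of the 9 whose TPM ratio, at a log2 of -0.28, exceeded the 95th percentile of the 500 genes nearest in level, 0.26. Ovol1 had the lowest ratio, -0.46 (interval -0.65 to -0.28; adjusted p = 8.1e-06 by the exact binomial test; adjusted p = 0.69 by edgeR). Grhl1 was at -0.40. In TPM the ratios of Ovol1 (-0.38) and Grhl1 (-0.30) were inside the same percentile of genes of their level (0.54 and 0.43). Klf5, Trp63 and Klf4 were at -0.22, -0.21 and -0.19. Grhl3 was at -0.14 (adjusted p = 0.0104 by the exact binomial test) and was no longer called when libraries were scaled by total or by spike-in counts.

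The genes of opposite direction were 2 of the 3 least abundant. Tfap2a had 464 and 565 expected counts and a log2 ratio of 0.30 (interval 0.13 to 0.49; adjusted p = 0.00499 by the exact binomial test). Grhl2 had 617 and 724 counts and a log2 ratio of 0.25 (interval 0.09 to 0.41; adjusted p = 0.00863 by the exact binomial test). All 9 kept their direction under TMM, DESeq2, total-count and spike-in scaling. The split over all genes did not: 2795 lower and 2371 higher calls with TMM became 2188 and 3250 with total counts and 1830 and 4090 with spike-ins.

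**Figure D4:**
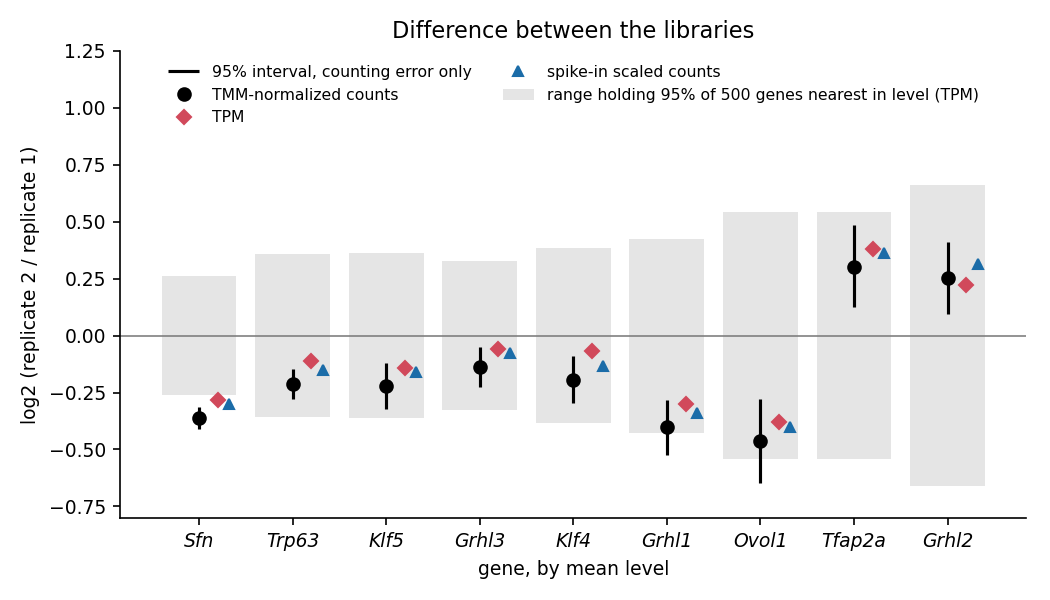
Log2 ratio of replicate 2 over replicate 1 for each regulator, from TMM-normalized counts (black, with 95% intervals for counting error), TPM (red) and spike-in scaled counts (blue). Grey bars give the range that holds 95% of the 500 genes nearest in level by TPM; Sfn alone leaves it, and Tfap2a and Grhl2 alone lie above 0.

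Genes listed for a link to p63 were all present, as 20 of 20 were at 1 TPM or more in both libraries. Whether each acts on p63, with it or under its control was not examined. The most abundant were Fgfr2, a receptor for fibroblast growth factors, at 110 ± 9.26 TPM, Sox11 at 92.6 ± 19.8 TPM, the chromatin remodeller Smarca4 at 65.9 ± 4.91 TPM and the Notch target Hes1 at 55.8 ± 0.71 TPM (SD, n = 2). These are also expressed outside epithelia. By the exact binomial test 8 of the 20 were called lower in replicate 2, by edgeR's exact test 0 of 20 in either direction. The binomial test called 5 higher (Fgfr2, Sox11, Smarca4, Kmt2d and Msx2), and 8 with spike-in scaling. The median log2 TPM ratio of all 20 was 0.02, beside 0.07 over the 15307 genes whose mean was at least 1 TPM.

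Basal epidermal genes were detected as a full set, 13 of 13. Perp, a p63 target in desmosomes, led at 473 and 368 TPM, followed by Krt14, Krt5 and Krt15, the last at 143 ± 20.2 TPM (SD, n = 2). Of the 13, 8 were called lower in replicate 2 and 0 higher by the exact binomial test, with 0 of 13 called by edgeR's exact test, and the median log2 ratio was -0.08. With spike-in scaling 5 of the 13 were called lower.

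The suprabasal and cornifying genes were further apart between the libraries. Krtdap, a keratinocyte differentiation-associated protein, stood at 1101 and 636 TPM (replicates 1 and 2). Krt1 was at 159 and 128 TPM, Krt10 at 96.9 and 67.6 TPM, and suprabasin (Sbsn) at 51.7 and 36.3 TPM. Of the 16, 10 were at 1 TPM or more in both libraries, and 12 of the 13 that could be tested were called lower in replicate 2 and 0 higher, under each scaling. The median log2 ratio of the 11 with a mean of 1 TPM or more was -0.44. By edgeR's exact test 3 were called, Krtdap, Dsc1 and Sprr1b, of which the last 2 are named after their values were seen. Genes of cornification ranged from the floor upward. Filaggrin (Flg) was at 0.01 TPM in replicate 1 and listed at 0 in replicate 2, Lce1a1 was listed at 0 in both, and Tgm5, Cdsn and Ivl were below 1 TPM. Loricrin (Lor), at 10.7 and 7.93 TPM, and Casp14, at 6.67 and 4.89 TPM, were above it, as were Sprr1b, at 12.1 and 6.44 TPM, and Tgm3, at 2.53 and 1.94 TPM; these too are named after their values were seen.

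Genes of the periderm, the outermost transient layer, were all detected (8 of 8). Krt4 was at 206 and 138 TPM, Krt19 at 82.1 and 69.9 TPM, Krt17 at 58.1 and 60.3 TPM, and Krt6a at 20.5 and 10.8 TPM. Here 5 were called lower in replicate 2, with Krt6a also called by edgeR, and 2 higher, Cldn6 (7.51 and 10.4 TPM) and Gabrp (7.04 and 10.5 TPM). The median log2 ratio was -0.34. Of 14 epithelial junction and splicing genes, all at 1 TPM or more, 8 were called lower and 0 higher by the exact binomial test (0 by edgeR), with a median of -0.12. Rab25 (54.3 and 40.9 TPM), Epcam (45.6 and 46.3 TPM), the adherens junction cadherin Cdh1 (45.1 and 43.1 TPM) and Cldn4 (47.5 and 38.0 TPM) were the most abundant.

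The 9 regulators had a median log2 TPM ratio of -0.11, between those of the basal (-0.08) and the junction list (-0.12), and no test of these medians against each other was made. Transcription factors of mesenchyme, which repress or lie outside the epithelial programme, had a median of 0.12. By the exact binomial test 3 of 7 were called higher in replicate 2, and 0 of 7 by edgeR's exact test in either direction. The 3 were Prrx1, Twist1 and Snai2, and 1 was lower (Zeb2, which was not called with total or spike-in scaling). The most abundant were Prrx1 at 87.0 and 102 TPM, Twist2 at 62.9 and 62.0 TPM, Twist1 at 53.9 and 63.6 TPM and Snai1 at 52.2 and 53.1 TPM.

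**Figure D5:**
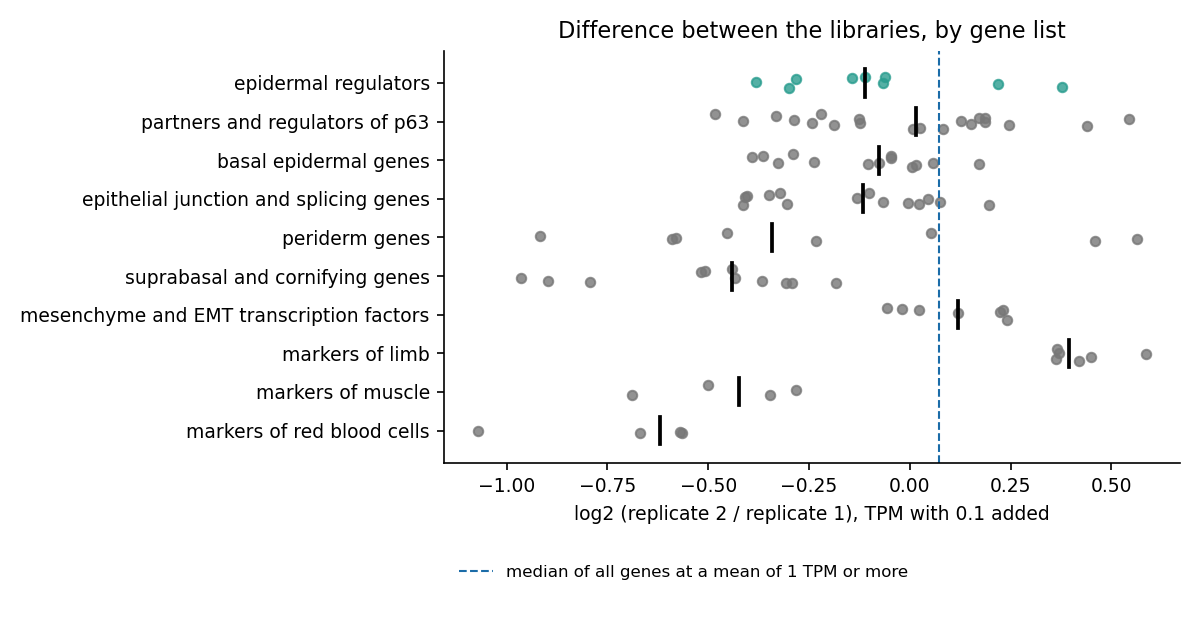
Log2 ratio of replicate 2 over replicate 1 in TPM for each gene with a mean of 1 TPM or more (points, spread vertically at random within a list) and the median of each list (black line). The dashed line is the median over all genes, 0.07; the regulators' median is -0.11 and that of the suprabasal list -0.44.

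Markers of other tissues were also called between the 2 libraries by the exact binomial test, which covers counting error only. By edgeR's exact test the calls were 0 of 6 for limb, 1 of 4 for muscle, 2 of 4 for red blood cells, 0 of 4 for cartilage, and 0 for the endothelial, neural crest and Merkel lists. All 6 limb markers were called higher in replicate 2. All 4 muscle genes were called lower, from a summed 1118 TPM to 741 TPM, and all 4 red blood cell genes, from 10004 TPM to 6486 TPM. Cartilage markers summed to 780 and 786 TPM (3 called lower and Sox9 higher), and the 6 endothelial markers to 128 and 126 TPM, with 2 called lower (1 with spike-in scaling). Markers of neural crest and melanoblasts, cells that express Tfap2a as well, summed to 16.2 and 13.8 TPM, with Tyr and Mlana below 1 TPM and 1 of 6 called lower (0 with spike-in scaling). The 5 Merkel cell genes summed to 45.5 and 51.5 TPM, nearly all of it Piezo2 (43.7 and 49.98 TPM), a channel gene also expressed by other cells. Isl1 was at 1.32 and 1.06 TPM, and Atoh1, Krt20 and Sox2 were below 1 TPM. The part of these differences in those of the 9 regulators was not tested.

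The promoters of the 5 genes with RefSeq entries were unlike in base composition. Over the 300 bases from 250 before to 50 after each start, GC content ran from 46.3% to 75.3%, beside a median of 52.7% over all 32851 promoters. The upstream Grhl1 promoter had 75.3% GC and 35 CpG dinucleotides, and the internal one 51.3% and 0 CpG. Klf4 had 74.3% GC and 40 CpG, Grhl3 58.3% and 12 CpG, and Sfn 54.0% and 4 CpG, so the most abundant gene had one of the 2 lowest CpG counts of the 7 entries.

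Letters that the factors themselves are known to bind, and the TATA hexamer, were searched on both strands. A match is a description of the sequence only. The Grainyhead-like core AACNNGTT occurred in 1 of the 7 entries, Sfn, 184 bases before the start (4.2% of all promoters hold it), and the palindrome AACCGGTT in 0 of 7 (0.146%). The AP-2 type GCCNNNGGC occurred in 2, the upstream Grhl1 promoter at 82 bases and Klf4 at 9 bases before the start (16.6% of all promoters). The KLF type CCACCC occurred in 2, Grhl3 at 118 and 77 bases and the internal Grhl1 promoter at 81 bases before the start (31.5%). The OVOL type CCGTTA (2.76%), the TATA hexamer TATAAA (13.6%) and the p53-family half-site (8.36%) were in 0 of 7. Only the exact letters TATAAA were searched. Variants such as the tatataag in the internal Grhl1 sequence were not counted, so TATA-type elements are not shown to be absent. The capitals in the sequences above mark these matches.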

How the data were processed

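Total RNA of limb at embryonic day 14.5 was measured in 2 libraries of 1 group. The build was mm10 with GENCODE M4 and each table holds 1 replicate, per the notes deposited with the samples. No source used here gives the aligner, the quantifier or the strand. Expected counts, as deposited, are estimates that need not be whole, and they were rounded for tests. The deposited TPM values have the same total in each library, spike-ins and mitochondrial genes included. The authors also deposited each transcript's percent of its gene, posterior mean TPM and credibility intervals of unstated level. Genes without an Ensembl identifier were left out of tests, apart from the 96 spike-ins in the spike-in scaling, and 26248 features with numeric identifiers held 17 and 27 counts.

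Symbols, transcripts and positions came from GENCODE M21 (GRCm38) for 42462 of 43346 identifiers, and all 24 transcripts of the 9 genes matched, 20 of them at the same length. Transcript starts were split at their widest gap. Library differences used a two-sided exact binomial test (the smaller tail doubled) and edgeR's exact test. The binomial test took genes with 10 or more summed counts, TMM sizes and Benjamini-Hochberg adjustment at 0.05. It was checked on data simulated with counting error alone, so the check does not cover further differences between libraries. Log2 TPM ratios used a pseudocount of 0.1, which understates changes of low genes. Intervals cover counting error only. Tools were Python 3.11.15 (numpy 2.4.6, pandas 2.3.3, scipy 1.17.1, matplotlib 3.10.9) and R 4.3.3 (edgeR 4.0.16, DESeq2 1.42.0). Members and lists were chosen with earlier results of these data known. Named genes were the 9 members and their paralogues, and of other lists the 4 genes of highest mean TPM, those below 1 TPM in both libraries and those called against most of their list. Alternatives were other scalings, detection and count minimums, pseudocounts, posterior mean TPM, rescaled TPM and each library alone.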

Additional observations from a re-analysis of the deposited data

How the results depend on the processing

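No paired analysis was possible because there is 1 group of 2 libraries. Rescaling TPM without spike-ins and mitochondrial genes raised the levels beyond 1 SD for 7 genes, to 50.4 TPM for Trp63, 242 TPM for Sfn, 18.4 TPM for Grhl1, 8.11 TPM for Grhl2, 40.8 TPM for Grhl3, 27.5 TPM for Klf4 and 50.1 TPM for Klf5; all genes were multiplied by the same factor within a library. With edgeR's exact test, 0 members were lower and 0 higher. The Trp63 deltaN share was 96.7% by expected counts and 92.4% by posterior mean TPM. The log2 ratio of Tfap2a to Tfap2c was -0.022 by posterior mean TPM, and -0.17 and 0.22 in the single libraries (replicate 1 and replicate 2); the cause was not tested. Over all genes, edgeR called 83 lower and 30 higher, and spike-in scaling 1830 lower and 4090 higher. List counts under other scalings were added after seeing the data. Of 412 alternative values for 103 results, 358 counted as kept, 52 as moved and 2 as reversed. A count within 1.5-fold of the reported count was taken as kept. The 6 members called lower with total counts (7 with TMM) were thus taken as kept. So were the 3250 genes called higher with total counts (2371 with TMM). For levels, transcript shares and paralogue ratios, an alternative within 1 SD of the reported mean counted as kept. A single library always lies within 1 SD of the mean of 2 libraries. The single-library values of these results could therefore not count as moved, and they are no check of size. With 1 library on each side, depth bounds only counting error.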

Other observations

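Some deposited TPM values lay outside the interval deposited with them. The Sfn value of 227.31 TPM in replicate 1 lay above its own upper bound of 226.55 TPM, and in replicate 2 the value of 186.83 TPM lay above 186.52 TPM. Among genes at 100 TPM or more, 447 of 1465 (30.5%) in replicate 1 and 488 of 1519 (32.1%) in replicate 2 did the same, against 519 of 15222 (3.41%) and 589 of 15379 (3.83%) among genes at 1 TPM or more. The Sfn posterior mean TPM, 222 and 182, lay inside the intervals.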
